A study of Caenorhabditis elegans with 2 samples.

Results

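Chromatin immunoprecipitation with sequencing (ChIP-seq) of F10B5.3 in L4 larvae of Caenorhabditis elegans gave 3184 calls on the 5 autosomes that lay between protein-coding genes and away from promoters, out of 24645 autosomal calls and 30000 calls in all. A call was a region listed by the authors' peak caller, which set the immunoprecipitated DNA against a control. The list was relaxed as input for a test of reproducibility and by its title holds background as well as peaks, so most calls are not shown to be enriched sites. A call was taken in if its summit, the base of highest signal, lay outside every protein-coding gene, over 1000 bp from every protein-coding transcription start site (TSS) and over 200 bp from every gene of a non-coding RNA. The rule used position alone and no measured value. These 3184 calls made up 12.9% of the autosomal calls and are called intergenic calls below.

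The worms were hermaphrodites of strain OP529, collected whole 48 hours after synchronization as starved L1 larvae that had hatched from bleached adults. They carried the integrated transgene wgIs529, which adds a C-terminal GFP-FLAG tag to F10B5.3, and the mutation unc-119(tm4063) III. An antibody to GFP pulled down the tagged protein, so an untagged protein made by the worms' own gene was not seen. Both biological replicates belonged to 1 group, and all cell types of the larva were pooled, so a site used in few cells and a weak site in many cells cannot be told apart. No expression was measured, and the labelled stage was not checked.

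F10B5.3, also named btbz-2 in the reference annotation, is annotated as a BTB domain-containing protein. BTB domains join proteins to each other, and many proteins that have them act at chromatin. Worm genes are closely packed, and most known regulatory sequence lies just upstream of a gene, while sequence far from any promoter can hold distal enhancers, gene 3′ ends, pseudogenes and repeats. Worm autosomes have gene-dense centres of low recombination, flanked by arms that recombine more and hold more repeats.

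The strongest intergenic calls on chromosomes III, IV and V are shown by the sequence at their summits, because these 6 sites hold ranks 2 to 7 by signal and show how far the strongest calls share letters. Each is named by the gene with the nearest TSS and runs 60 bp to either side of the summit, on the plus strand of ce11, read from the RefSeq copy of that assembly. Capitals mark GAGAGA or its complement TCTCTC, and TGCGTCTC or its complement GAGACGCA. The sites are sup-26 at III:4282144-4282264, T04C4.3 at IV:2219625-2219745, Y105C5A.1 at IV:15570909-15571029, Y37A1B.7 at IV:14034363-14034483, hif-1 at V:20778356-20778476 and Y116A8A.150 at IV:16845486-16845606. T04C4.3, Y105C5A.1 and hif-1 have marked letters, and the other 3 sites have none.
sup-26: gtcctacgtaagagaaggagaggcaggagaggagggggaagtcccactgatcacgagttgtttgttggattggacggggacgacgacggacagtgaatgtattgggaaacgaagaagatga
T04C4.3: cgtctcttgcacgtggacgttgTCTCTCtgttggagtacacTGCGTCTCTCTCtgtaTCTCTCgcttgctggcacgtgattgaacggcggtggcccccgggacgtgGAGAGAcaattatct
Y105C5A.1: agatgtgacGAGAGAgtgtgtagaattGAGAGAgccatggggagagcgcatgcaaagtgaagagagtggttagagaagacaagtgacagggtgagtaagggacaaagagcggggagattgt
Y37A1B.7: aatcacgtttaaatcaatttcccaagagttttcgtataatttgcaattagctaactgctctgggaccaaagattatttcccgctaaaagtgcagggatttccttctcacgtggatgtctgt
hif-1: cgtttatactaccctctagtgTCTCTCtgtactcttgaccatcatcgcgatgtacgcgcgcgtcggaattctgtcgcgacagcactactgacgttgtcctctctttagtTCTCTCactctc
Y116A8A.150: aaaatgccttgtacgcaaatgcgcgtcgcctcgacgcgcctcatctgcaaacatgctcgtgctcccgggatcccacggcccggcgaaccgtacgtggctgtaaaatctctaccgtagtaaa

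Few of the intergenic calls reached the authors' thresholded set. That set holds the 862 pooled calls that passed analysis of the irreproducible discovery rate (IDR), a measure of how well calls rank alike in both replicates, and its members were also the 862 pooled calls of highest signal. Of the 3184 intergenic calls, 54 were in it, or 1.70% (95% Wilson interval 1.30 to 2.21), against 2.87% of all pooled calls and 2.53% of the autosomal ones. The other autosomal calls were in it more often, with 570 of 21461 or 2.66%. The difference of -0.960 percentage points had a 95% Newcombe interval of -1.41 to -0.409, which excludes 0. Of the 570, 236 were among the 2278 calls within 200 bp of a non-coding RNA gene, which the rule keeps out of the intergenic calls. The share without that class was not computed. The difference is therefore not read as a lower share than that of other autosomal calls away from non-coding RNA genes. Calls inside genes had lower shares than the intergenic calls, as given below. Where calls near but outside non-coding RNA genes were also counted as intergenic, the difference was -0.436 points (-0.915 to 0.127), and the interval held 0. In each replicate's own list the 862 strongest calls were taken in place of the IDR set. The same difference was -1.6 points (-2.18 to -0.884) in replicate 1, with 47 of 2325 intergenic calls among the strongest. It was -1.05 points (-1.54 to -0.451) in replicate 2, with 55 of 2961. The sign was the same in both replicates. Calls within 200 bp of a non-coding RNA gene made up 222 of the 567 strongest other autosomal calls in replicate 1. In replicate 2 they made up 229 of 574, so the same limit holds in both lists. All intervals count calls, not worm cultures, and cover counting error only, and read depth is unknown.

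The position of a summit separated the calls into groups with different IDR shares. The intergenic share of 1.70% was below the 6.52% (208 of 3188) of autosomal calls between genes and within 1000 bp of a TSS, with a difference of -4.83 points (-5.82 to -3.87). It was also below the 10.4% (236 of 2278) of calls within 200 bp of a non-coding RNA gene, with a difference of -8.66 points (upper bound -7.37). It was above the 0.544% (44 of 8087) of calls inside genes and over 1000 bp from a TSS, with a difference of 1.15 points (0.717 to 1.68). Each of these 3 differences kept its sign, with an interval that excluded 0, in both replicate lists. Against the 1.04% (82 of 7908) of calls inside genes near a TSS, the difference was 0.659 points (0.194 to 1.21) in the pool, and its interval held 0 in replicate 1, at 0.422 (-0.189 to 1.14). Calls on the X chromosome that met the same positional rule were in the IDR set more often, with 47 of 1153 or 4.08%, and the difference was -2.38 points (-3.74 to -1.26).

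**Figure D1:**
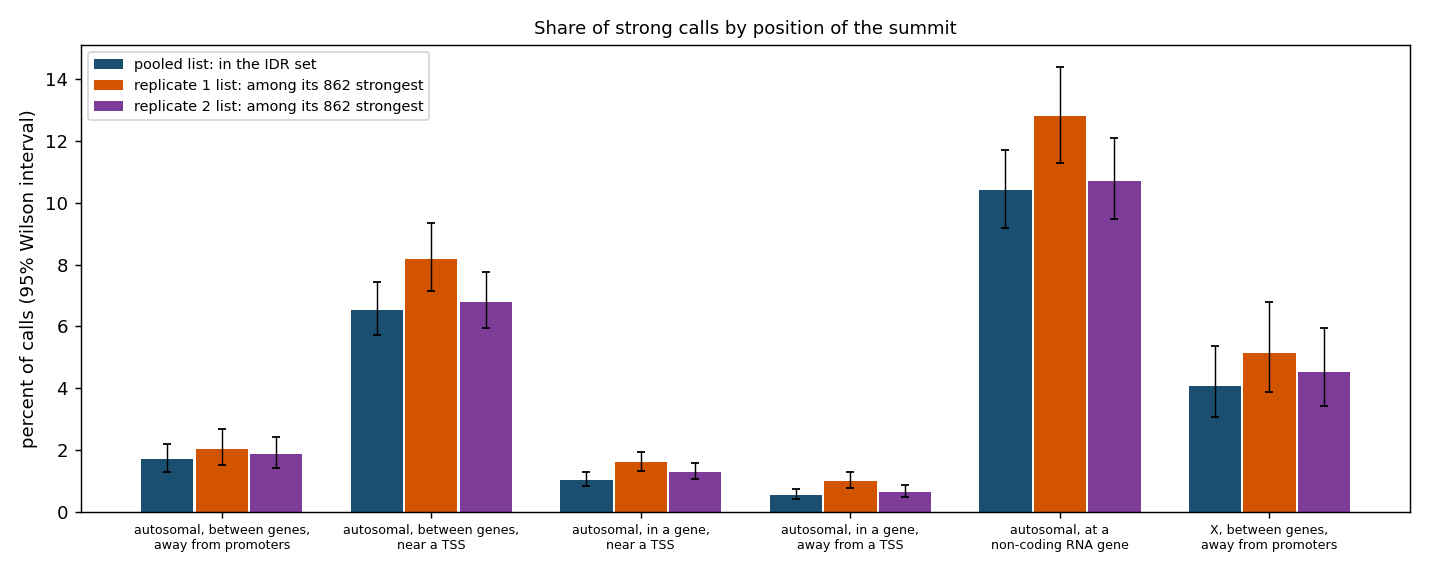
Percent of calls in the IDR set (pooled list) or among the 862 strongest calls (replicate lists) by position of the summit, with 95% Wilson intervals over calls as error bars. The intergenic calls, at the left, stand at 1.70% in the pool, 2.02% in replicate 1 and 1.86% in replicate 2, below the calls between genes near a TSS and those at non-coding RNA genes.

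Most intergenic calls were weak, and a short tail was strong. The signal is the peak caller's own value, its scale is not stated, and it is compared only within a list. In the pool the median was 26.6 for intergenic calls (quartiles 21.8 and 34.5, from 18.4 to 319) and 27.6 for the other autosomal calls (quartiles 22.3 and 36.9, up to 769). In the replicate lists the intergenic median was 16.8 in replicate 1, with a highest value of 142, and 17.9 in replicate 2, with a highest value of 191. Of the intergenic calls in the pool, 29 had a signal above 100, 9 above 150, 4 above 200 and 2 above 300. Only 4 were among the 100 highest autosomal calls. Among the 100 highest nuclear calls 3 were autosomal intergenic calls and 17 were calls on X under the same rule, which reached 1110.

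The highest intergenic call lay between 2 convergent genes near the left end of chromosome I, at I:16898-17131 with the summit at 17017. Its pooled signal was 319, with 120 in replicate 1 and 191 in replicate 2. It was 180 bp beyond the 3′ end of nlp-40, which encodes a neuropeptide-like protein released by the gut in the defecation cycle, and 467 bp beyond that of rcor-1, a homolog of the CoREST corepressor. The next strongest lay at III:4282000-4282331, with 313 in the pool, 142 in replicate 1 and 177 in replicate 2. Its summit was 1980 bp upstream of the gene sup-26, which encodes an RNA-binding protein. An overlapping call had its own summit 2185 bp upstream, at 4282409, with 123 in the pool, 40.4 in replicate 1 and 36.5 in replicate 2. The first sup-26 summit was among the 862 strongest calls of both replicates, and the second was among them in neither.

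On chromosome IV the 3 strongest calls lay over 2000 bp from any protein-coding gene, and 2 of them within 1000 bp of a small RNA gene. The summit at 2219685, with pooled signal 262, 126 in replicate 1 and 135 in replicate 2, lay in a divergent gap of 5971 bp between T04C4.3 and fnip-2, a homolog of folliculin-interacting proteins. The summit at 15570969, with 218 in the pool, 84.6 in replicate 1 and 134 in replicate 2, lay in a divergent gap of 14658 bp between Y105C5A.1 and pqn-76, 266 bp from the piRNA gene 21ur-8889. Piwi-interacting RNAs (piRNAs) are small RNAs of the germ line that silence foreign sequence, and their genes are clustered on this chromosome. The summit at 14034423, with 184 in the pool, 61.3 in replicate 1 and 78.2 in replicate 2, was 8172 bp from the nearest gene end, that of Y37A1B.7, and 316 bp from the microRNA gene cel-mir-52, one of the mir-51 family. All 3 were among the strongest calls of both replicates.

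Strong calls on the other chromosomes lay near hif-1, xbp-1, asd-1 and vhp-1. On chromosome V the highest lay 1991 bp upstream of hif-1, the hypoxia-inducible transcription factor, with 171 in the pool, 65.0 in replicate 1 and 103 in replicate 2. On chromosome III a summit at 4195581, with 151 in the pool, 85.0 in replicate 1 and 68.4 in replicate 2, lay 223 bp beyond the 3′ end of xbp-1, a transcription factor of the unfolded protein response, and 1704 bp upstream of asd-1, a splicing regulator. On chromosome II the highest lay 1150 bp upstream of vhp-1, a phosphatase of MAP kinases, with 127 in the pool, 36.1 in replicate 1 and 88.5 in replicate 2. Among autosomal calls the hif-1 call ranked 197 in replicate 1 and 140 in replicate 2, the xbp-1 call ranked 104 in replicate 1 and 331 in replicate 2, and the vhp-1 call ranked 954 in replicate 1 and 189 in replicate 2.

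The remaining calls of the 20 strongest had pooled signals from 109 to 153. They lay nearest the TSSs of Y116A8A.150 (153), F40E3.3 (151), pan-1 (138), tsr-2 (120), T28F4.1 (119), znf-782 (117), gldi-3 (115), mrpl-51 (113), rho-1 (112), Y39E4B.6 (109) and F09G2.1 (109). The protein of pan-1 has leucine-rich repeats, mrpl-51 encodes a mitochondrial ribosomal protein, and rho-1 is the worm RhoA GTPase. The T28F4.1 call had 91.5 in replicate 2 and no call within 100 bp in replicate 1. The third highest on chromosomes II and V had 106, near K07D4.2, and 107, near F53E10.5. The highest intergenic call outside the IDR set had 86.2 in the pool, 22.1 in replicate 1 and 53.5 in replicate 2 and lay nearest mstr-1, just under the 87.1 of the weakest one inside it.

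**Figure D2:**
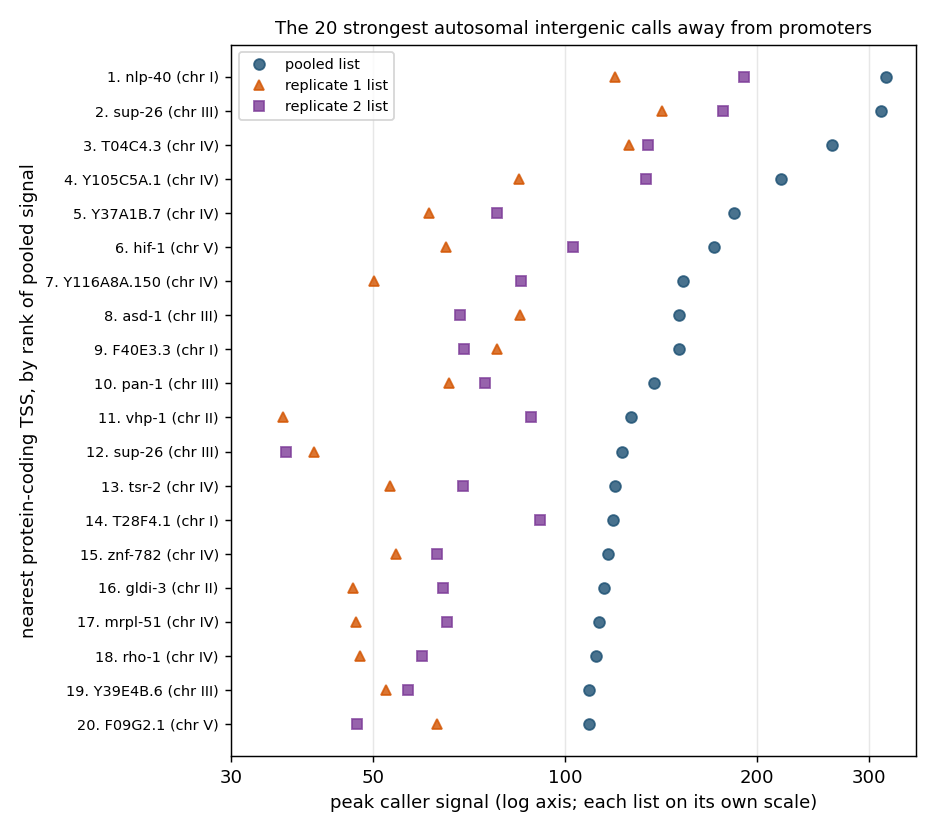
Peak caller signal of the 20 strongest intergenic calls in the pooled list and at the matching summit in each replicate list, on a log axis, by nearest TSS. The strongest stand at 319 and 313 in the pool. The T28F4.1 call has no triangle because replicate 1 has no call within 100 bp.

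The 54 intergenic IDR calls were found again in nearly all cases in the replicate lists, while the weaker ones often were not. A summit within 100 bp was present in replicate 1 for 53 of the 54, in replicate 2 for 52 and in both for 51. Since the pool uses the same reads, this describes the repeat and is not independent evidence. Of the 54, 25 were among the 862 strongest calls of both replicates, 27 of 1 replicate only and 2 of neither. Of the other 3130 intergenic calls, 538 had a call in both replicates (17.2%), 760 in neither (24.3%), and none was among the strongest of both. IDR calls were selected by how calls rank in both replicates, so this contrast follows in part from how the groups were made. Over all intergenic calls 589, or 18.5%, had a call in both, against 20.9% of the other autosomal calls.

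In the pool, chromosome arms and centres held intergenic calls at nearly the same density once the sequence open to the rule was counted, while replicate 2 held slightly fewer on arms. Arms were taken as the outer 25% at each end of an autosome and centres as the middle 50%. The arms held 1669 of 3184 intergenic calls, or 52.4% (50.7 to 54.1), while the sequence in which a summit would meet the rule was 52.3% on arms. That sequence came to 16.3 Mb of the 82.6 Mb of autosomes. Here and below it was counted by length, with no allowance for stretches that recur elsewhere in the genome. Per Mb of it, arms held 196 calls and centres 194. The other autosomal calls were on arms in 44.5% of cases. By replicate, the arm share of the intergenic calls was 51.8% in replicate 1 (49.8 to 53.8) and 50.1% in replicate 2 (48.3 to 51.9), and the interval in replicate 2 lies below the 52.3% of the sequence. Its density was 174 calls per Mb on arms and 190 on centres. The chromosomes were not alike, and on chromosome IV the pooled density was 209 on arms and 178 on centres.

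The IDR share did not differ between arms and centres beyond the counting error. It was 1.56% on arms (26 of 1669) and 1.85% on centres (28 of 1515), a difference of -0.290 points with an interval of -1.24 to 0.622 that holds 0. The sign was not stable, with 0.114 points in replicate 1 and -0.209 points in replicate 2, and a difference of either sign inside the interval cannot be told from none at this number of calls. Along the chromosomes, summed over all 5 and cut into 10 stretches of equal length, density ran between 175 calls per Mb in the stretch before the last and 228 in the last. IDR calls ran from 2 to 9 per stretch.

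**Figure D3:**
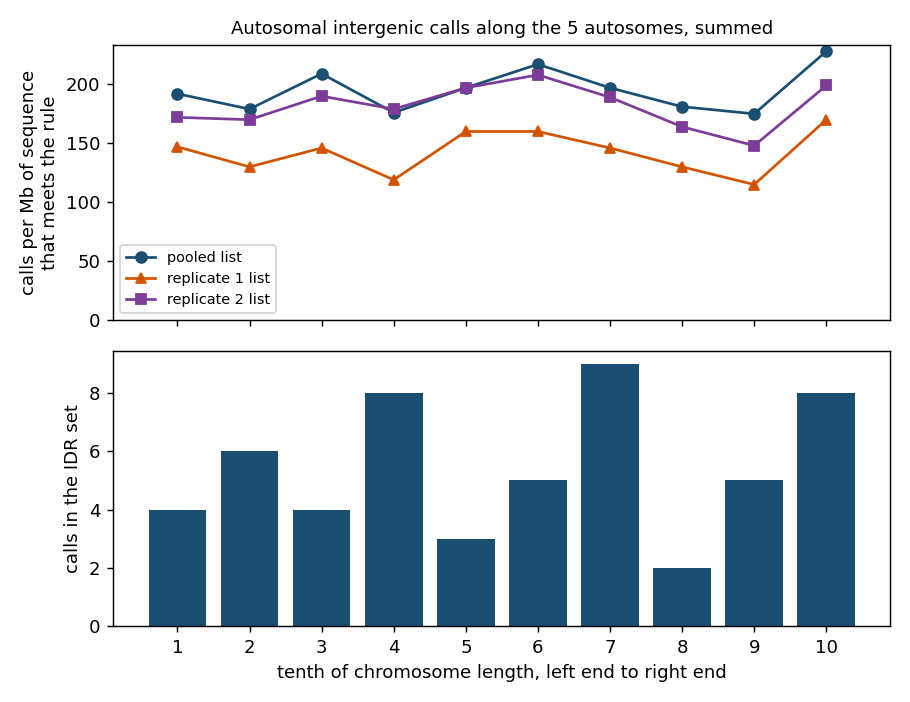
Intergenic calls per Mb of sequence that meets the rule (top; pooled list and each replicate list) and number of IDR calls (bottom) in 10 stretches of equal share of the chromosome length, summed over the 5 autosomes. The pooled density lies between 175 and 228 calls per Mb in every stretch. Stretch 10 is highest in replicate 1, at 170 calls per Mb, and stretch 6 in replicate 2, at 208.

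The chromosomes differed more than their arms and centres. Per Mb of sequence that meets the rule, the density was 250 calls on chromosome I, 248 on III, 194 on IV, 192 on II and 138 on V. Chromosome V was lowest in both replicates too, with 112 in replicate 1 and 137 in replicate 2, against at least 132 and 174 on the others. The IDR share was 2.50% on III (16 of 640), 1.93% on IV (12 of 622), 1.77% on II (11 of 623), 1.23% on I (8 of 648) and 1.08% on V (7 of 651). With intervals of 1.54 to 4.02 on III and 0.522 to 2.20 on V, neighbours in this order overlap.

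Intergenic calls were denser close to gene 3′ ends than the sequence there would give by its length. Because the rule removes sequence near a TSS, gene ends within 500 bp of an intergenic call are almost all 3′ ends. Of the 3184 calls, 773 (24.3%) lay within 500 bp of a protein-coding gene, while 13.3% of the sequence that meets the rule did. In replicate 1 the share was 23.1%, and in replicate 2 it was 23.9%, both without a test against the sequence. Of the 3130 pooled calls outside the IDR set, 751 (24.0%) lay that close, so the pooled share mostly describes weak calls. No allowance was made for a 31 bp stretch that recurs elsewhere, present in 27.6% of sampled windows and 13.9% of intergenic calls. Its part in the density was not tested. The 500 bp distance was chosen after values were seen. Of these 773 calls, 22 were in the IDR set (2.85%), against 32 of the 2411 farther away (1.33%), a difference of 1.52 points (0.418 to 3.0). The difference was 2.70 points (1.17 to 4.78) in replicate 1 and 1.28 points (0.119 to 2.84) in replicate 2. Both lists share reads with the pool and the distance was chosen after values were seen, so they are not independent repeats.

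The 22 IDR calls within 500 bp of a gene lay beyond the 3′ ends of nlp-40, xbp-1, imph-1, tsr-2, T28F4.1, F40E3.3, mrpl-51, F09G2.2, sec-61.A, xbx-5, T26E3.7, cki-1, F09E5.7, Y110A2AR.1, nipa-1, nars-1, H12I13.1, cox-5A, vha-14, eef-2, ptp-1 and C28H8.3. They were named after their values were seen. Among them sec-61.A encodes the protein-translocating channel of the endoplasmic reticulum, cki-1 an inhibitor of cyclin-dependent kinases, cox-5A a subunit of cytochrome c oxidase, eef-2 a translation elongation factor and vha-14 a subunit of the vacuolar proton pump. The nearest gene end is named here, and 2 of the calls also lay within 500 bp of a second 3′ end, that of rcor-1 or atp-1, which is not counted. Of the 22 genes named, cox-5A and eef-2 also had an IDR summit within 1000 bp of one of their own TSSs. That is 2 of 22 genes (9.09%), against 38 of the 691 genes (5.50%) with a weaker intergenic call at the 3′ end, and the difference of 3.59 points had an interval of -3.26 to 22.4. Over all autosomal protein-coding genes it was 3.32%.

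Other neighbours were described with few IDR calls in each class. Tandem gaps, between genes read in one direction, held 57.2% of the intergenic calls and 37 of the 54 IDR calls, with 54.6% of the sequence. Divergent gaps held 25.6% and 10, with 28.9% of the sequence, and convergent gaps 17.1% and 7, with 16.4%. The IDR share was 2.03% in tandem gaps (1.48 to 2.79), 1.23% in divergent gaps (0.667 to 2.24) and 1.29% in convergent gaps (0.626 to 2.64), and these intervals overlap. Inside annotated pseudogenes lay 279 intergenic calls (8.76%) and 1 IDR call, while pseudogenes held 13.7% of the sequence. The IDR share inside minus outside pseudogenes was -1.47 points (-2.09 to 0.232), an interval that holds 0. A microRNA gene stood over 200 and up to 1000 bp away from 25 intergenic calls, 3 of them in the IDR set, and a piRNA gene from 152, also 3. For tRNA genes these numbers were 15 and 0. By class of the nearest gene, chemoreceptors, which make up 7.39% of autosomal protein-coding genes, accounted for 96 calls (3.02%). The share of the sequence meeting the rule that lies nearest these genes was not computed, so no shortage is read from this. None of the 96 was an IDR call, a count too small to set apart from the 1.70% over all intergenic calls. Nuclear hormone receptor genes accounted for 60 calls and 1 IDR call.

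At the edges of the rule the IDR calls were too few to show whether their share changes there. Of calls over 1000 and up to 1100 bp from a TSS that met the rule, 2 of 157 were IDR calls, with a median signal of 25.4. Of those over 900 and up to 1000 bp away, just outside it, 2 of 168 were, with 27.7. At over 200 and up to 300 bp from a non-coding RNA gene it was 5 of 125 with a median of 28.6, and at over 100 and up to 200 bp, outside the rule, 4 of 183 with 26.4. Within the rule, the IDR share was 2.47% up to 1500 bp from a TSS (17 of 687), 1.89% from there to 2000 bp, 1.93% to 3000 bp, 0.813% to 5000 bp (6 of 738) and 1.36% to 10000 bp. Beyond that it was 1 of 64. The intervals of neighbouring classes overlap.

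Sequence around the summits was richer in G and C at the IDR calls than at the other intergenic calls. The median GC content of the sequence within 50 bp of the summit was 46.5% at the 54 IDR calls, 35.6% at the other 3130 and 33.7% over all windows that meet the rule. At the other autosomal IDR calls it was 49.5%. Bases marked as repeats in the reference averaged 17.1% of the window at the intergenic IDR calls, 36.0% at the other intergenic calls and 41.4% over all windows that meet the rule. A stretch of 31 bp that recurs elsewhere in the genome was present at 8 of 54 IDR calls (14.8%), 13.9% of the other intergenic calls and 27.6% of a sample of windows. Base composition differs between these groups, and its part in the IDR calls was not tested.

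**Figure D4:**
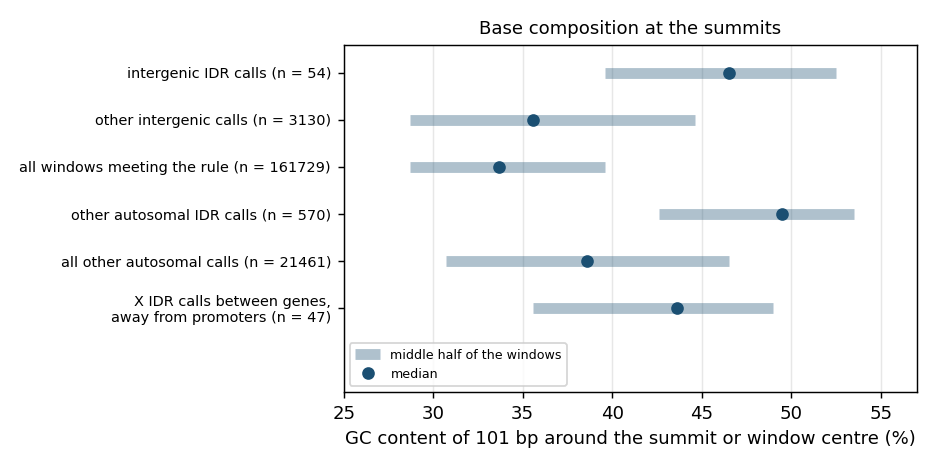
GC content of the sequence within 50 bp of the summit, or of windows of the same width tiled over all sequence that meets the rule. Points are medians and bars span the first to the third quartile. The intergenic IDR calls stand at 46.5%, above the 35.6% of the other intergenic calls.

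Of 13 motifs searched on both strands within 50 bp of the summit, the one with the largest gap in share between IDR calls and the other intergenic calls in the higher direction was GGGCGG, present at 8 of 54 (14.8%) against 3.07%, with 1.71% of all windows. It was also at 8.60% of the other autosomal IDR calls and at 6 of the 44 (13.6%) that lay in genes over 1000 bp from a TSS. GGGCGG holds only G and C, and its share was not compared at like GC content. The run AAAAAAAA was at 1 of 54 (1.85%) against 11.8% and 13.1% of windows, but at 10.9% of the strongest intergenic calls in the list of replicate 2, and at 13.0% of the 54 within 100 bp of the summit, so no difference is read from it. The tRNA gene B box GTTCNANNC was at 2 of 54 (3.70%), 3.71% of the other intergenic calls and 3.37% of windows. GCGCAGGG, a core of the motif known from dosage compensation sites on X, was at 0 of 54, while it was at 8 of the 47 IDR calls on X under the same rule. A match describes letters and does not show a bound site.

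The marked words of the printed sequences were chosen after these calls had been seen, so their shares are a description with no test. GAGAGA had the largest difference in share of 2080 words of 6 letters. It was at 20 of the 54 IDR calls (37.0%), 10.5% of the other intergenic calls, 5.53% of windows and 19.6% of the other autosomal IDR calls. The longer GAGAGAGA, 1 of the 13 motifs, showed no such gap. It was at 2 of the 54 (3.70%, interval 1.02 to 12.5), 2.30% of the other intergenic calls and 8.63% of the 313 strongest of those. TGCGTCTC, whose end can overlap GAGAGA, was at 7 of 54 (13.0%), 2.40% of the other intergenic calls, 0.604% of windows and 4.91% of the other autosomal IDR calls. It was at 5 of the 44 IDR calls (11.4%) in genes over 1000 bp from a TSS and at 9.58% of the 313 strongest intergenic calls outside the IDR set, and GAGAGA was at 11 of those 44 and 24.6% of those 313, so neither word is particular to the intergenic IDR calls. At GC of 50% or more, GAGAGA was at 10 of 20 IDR calls, 23.5% of the other intergenic calls and 12.0% of windows. There TGCGTCTC was at 7 of 20 IDR calls, 7.41% of the other intergenic calls and 3.27% of windows. It was at 0 of 17 IDR calls with GC from 40% to under 50%, and at 0 of 17 with GC under 40%. Among the intergenic calls that were in the strongest set of each replicate's own list, GAGAGA was at 36.2% of 47 in replicate 1. In replicate 2 it was at 38.2% of 55. The word had been picked at the 54 pooled IDR calls, which use the same reads. Of those 54, 25 were among the strongest calls of both replicates and 27 of 1 replicate only, so these shares are not an independent repeat. In the pooled list GAGAGA was at 19.6% of the 637 intergenic calls with the highest signal, against 8.01% to 9.58% in the 4 weaker groups of equal size. The group of highest signal includes the 54 IDR calls at which the word was picked, so this is not an independent repeat either.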

How the data were processed

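Peak lists of F10B5.3-eGFP ChIP-seq from 2 biological replicates of 1 group were used. Per the labels and the deposited notes, the authors ran their caller on each replicate and on the pooled reads against a control, in ce11, and IDR analysis followed. Which aligner and caller, with what thresholds, is not given in the sources used here. Each call has a deposited signal. This signal is the authors' caller value on an unstated scale and was ranked or described within a list only. The deposited −log10 q-value sat at 3.24 for every IDR peak and did not order them. The lists hold no read counts, so depth is unknown. The ce10 lists were not used.

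Summits, gene positions (Ensembl release 115, WBcel235, the same assembly as ce11) and the RefSeq genome gave the positional classes, with Python 3.11.15, numpy 2.4.6, pandas 2.3.3 and scipy 1.17.1, and matplotlib 3.10.9 for figures. All call ends lay inside the chromosome lengths. Shares have 95% Wilson intervals and differences of shares Newcombe intervals, past the threshold where 0 is excluded, and no p-value was computed because calls are not replicates. Distances to genes and the sequence that meets the rule were checked at random positions. The interval of a difference was checked on simulated counts that treat calls as independent. A summit matched a replicate if one lay within 100 bp. Named calls were the 20 of highest signal, the 3 highest on each autosome and the highest outside the IDR set. The members, lists and motifs were chosen with earlier results of these data known. Sequences on chromosome I are not printed.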

Additional observations from a re-analysis of the deposited data

How the results depend on the processing

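Across the alternatives, 58 comparisons of main results kept their direction, value or side of the threshold, 13 moved, 3 reversed and 1 weakened, and of motif shares 146 held and 19 moved. The IDR share of intergenic calls minus that of all other autosomal calls, those at non-coding RNA genes included, stayed below 0 throughout. Where only non-coding RNA gene bodies, without the 200 bp margin, were left out, the difference was -0.436 points (-0.915 to 0.127). With a TSS distance over 2000 bp there were 1968 calls, with 55.9% on arms. The IDR share was 0.377% for the stronger 431 IDR peaks and 2.70% where any overlap with an IDR peak counted, and 9 of the 13 motifs were at 1 or more intergenic IDR calls, but 4 with the stronger peaks, which leave fewer calls. The median signal was 27.3 with overlapping calls merged. The arm share was 55.1% with non-coding RNA genes over 1000 bp away, 50.3% away from pseudogenes, 50.1% without replicate 1 (50.1% to 51.8% over the replicates left out), 68.9% with wider arms and 42.1% with narrower arms, both by construction. The arm minus centre difference in IDR share ran from -0.209 without replicate 1 to 0.114 without replicate 2, and reversed also to 0.0894 for the stronger IDR peaks and 0.0331 with narrower arms, each interval holding 0. A call in both replicates was present for 11.2% at 50 bp and 27.4% at 200 bp, by construction. Where none is given, the cause was not tested. Median signal and presence in both replicates were not computed for single replicate lists, which have another scale or no second list. No paired analysis was possible because there was 1 group. Unknown depth limits weak calls, and with 54 IDR calls shares of a few calls have wide intervals.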
